A study of Homo sapiens with 20 samples.

Results

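The response of HPB-ALL cells to the NBD peptide was measured on 4 of the 20 arrays of the series. They were chosen by their titles, 2 arrays of cells given the NBD peptide and 2 arrays of cells given a control peptide, both for 16 h. HPB-ALL is an established human T-ALL (T cell acute lymphoblastic leukaemia) cell line. The other 16 arrays hold CEM, DND41, KOPT-K and T-ALL1 cells in the same design, 2 per line and peptide. The peptide dose was 100 in every group, but the descriptions give it in µM and the source names in mM, and nothing below rests on it. Every group received a peptide, so each difference sets NBD against the control peptide. Whether a pair of arrays holds separate cultures is not given in the labels, and the p-values therefore measure only the spread between arrays, which may be technical.

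NF-kB is a family of transcription factors held in the cytoplasm by IkB proteins until the IkB kinase (IKK) marks these for destruction. IKK joins the regulatory subunit NEMO (IKKγ) to the catalytic subunits IKKα and IKKβ, and the NBD peptide copies the stretch through which the catalytic subunits bind NEMO, which keeps the complex apart. In T-ALL, NF-kB has been described downstream of Notch, with the Notch target HES1 repressing CYLD, a deubiquitinase that restrains IKK, and the series' title places it in that pathway.

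The 4 arrays were checked against cell type markers. All 11 measured markers of T cells and 11 of 12 markers of cortical thymocytes lay at or over the median deposited intensity (31.96) on all 4 arrays. The same held for 3 of 8 markers of B cells, 1 of 9 of myeloid cells, 2 of 10 of fibroblasts and epithelium and 2 of 6 of erythroid and endothelial cells. The arrays correlated at r = 0.998 within the NBD pair, 0.997 within the control pair and 0.996 to 0.997 between the pairs, and each correlated best with the other array of its own group. RNA integrity was read from actin, whose 3′ signal exceeded its 5′ signal on the log2 scale by 1.27 and 1.33 on the NBD arrays and 1.45 and 1.28 on the control arrays, so the groups overlapped. The median intensity was 31.1 and 31.0 on the NBD arrays and 30.8 and 30.6 on the control arrays.

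Of 13787 genes tested, 19 were higher (0.138%) and 89 lower (0.646%) with NBD in HPB-ALL cells, together 108 genes or 0.783%, in limma with Benjamini-Hochberg adjustment at 0.05. The fit took its spread from all 10 line and peptide groups. Each gene is given by its intensity on each array, and its difference is the mean log2 intensity of the NBD arrays minus that of the control arrays, with the standard error (SE) of the fit. Past a fold of 1.5 were 10 of the higher and 31 of the lower genes, and past a fold of 2 were 7 and 8. The genes that rose were led by metallothioneins, zinc-binding proteins that buffer metal ions. The list of those that fell was headed by CD300A, LZTFL1, DOCK1 and CR2, and held receptors, adaptors and transcription factors of the T lineage. The median difference over all genes was -0.01, with 361 genes (2.62%) higher and 1078 (7.82%) lower at an unadjusted p under 0.05, and 45.8% of all genes above 0 and 54.2% below 0. All 108 called genes had NBD arrays entirely above or below the control arrays, a pattern that 20.7% of all genes showed with NBD above and 29.1% with NBD below.

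The number of calls depended on which arrays and probe sets were used. The 4 HPB-ALL arrays alone gave 6 higher genes (MT1X, MT1F, MT2A, MT1H, MT1G and MT1HL1) and 3 lower genes (LZTFL1, CR2 and RAG1) in limma, with a lowest adjusted p of 0.0361. Without 1 of the 4 arrays in turn, 7 of the 19 higher and 11 of the 89 lower genes passed each time, and 10 and 48 passed in none of the 4 fits, each of which rests on fewer arrays. The 7 were the metallothioneins MT1X, MT1F, MT2A, MT1H, MT1G, MT1HL1 and MT1E. The 11 were CD300A, LZTFL1, DOCK1, CR2, MYMX, RAG1, CD38, MYB, LEF1 and, outside the rule for named genes and chosen after their values were seen, the RNA helicase DDX17 and the glycosylation enzyme DPAGT1. When all probe sets of a gene were averaged, dim ones included, 9 of 18 higher and 39 of 86 lower genes that could be tested remained called. DDX17 was not among them, with -0.56 from its brightest probe set and -0.20 on average.

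**Figure D1:**
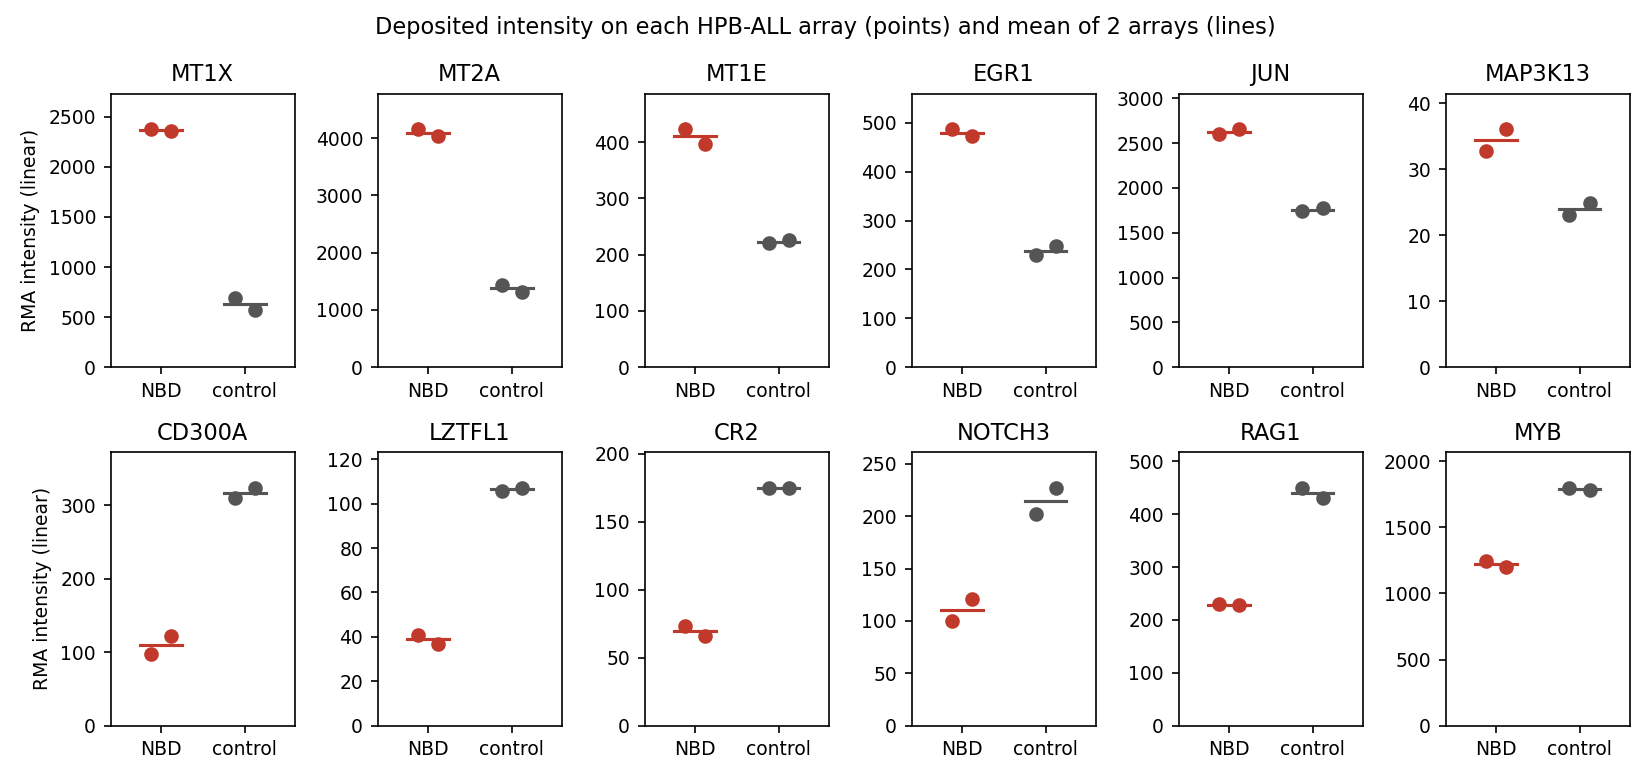
Deposited RMA intensity (linear, y axis from 0) of 12 genes on each of the 2 NBD and 2 control arrays of HPB-ALL (points), with the mean of each pair (lines). In the upper row both NBD points lie above both control points, and in the lower row both lie below; MT1X stands at 2377 and 2358 with NBD and at 693.1 and 567.2 with control.

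Metallothioneins were the group with the largest rise. They are small cysteine-rich proteins, and MTF1, a zinc-sensing transcription factor, is known to switch their genes on through metal response elements in their promoters. To show what these promoters share, the 250 bases before the transcript start of MT1X (chr16:56682220-56682469, plus strand), MT2A (chr16:56608334-56608583, plus strand) and MT1H (chr16:56669564-56669813, plus strand) are printed from RefSeq, build GRCh38.p14. Capitals mark the metal response core, TGCGCNC or TGCACNC on either strand (on the minus strand it is read as GNGCGCA or GNGTGCA).
MT1X: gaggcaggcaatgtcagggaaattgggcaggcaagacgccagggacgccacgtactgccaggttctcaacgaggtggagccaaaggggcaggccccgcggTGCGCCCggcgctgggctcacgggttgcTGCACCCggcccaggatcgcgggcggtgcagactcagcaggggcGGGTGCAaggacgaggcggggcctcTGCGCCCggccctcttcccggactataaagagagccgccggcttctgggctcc
MT2A: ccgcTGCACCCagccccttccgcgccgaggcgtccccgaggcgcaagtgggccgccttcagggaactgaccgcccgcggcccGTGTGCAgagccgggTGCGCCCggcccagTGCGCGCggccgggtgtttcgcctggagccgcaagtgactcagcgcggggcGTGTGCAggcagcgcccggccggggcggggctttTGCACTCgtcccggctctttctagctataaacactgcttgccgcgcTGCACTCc
MT1H: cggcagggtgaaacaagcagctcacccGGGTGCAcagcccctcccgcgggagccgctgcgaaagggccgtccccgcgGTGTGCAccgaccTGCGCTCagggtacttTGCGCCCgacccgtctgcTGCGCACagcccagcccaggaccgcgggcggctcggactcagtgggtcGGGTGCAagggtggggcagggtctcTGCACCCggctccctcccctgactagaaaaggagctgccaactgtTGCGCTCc
The core occurred 4 times before MT1X, 7 times before MT2A and 8 times before MT1H. At least 1 match was found in 24.8% of the 35116 RefSeq promoter windows of this length and at least 4 in 0.37%. A match is a string of letters and not a measured binding site. For MT1E, MT1F, MT1G and MT1HL1 no window is shown.

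**Figure D2:**
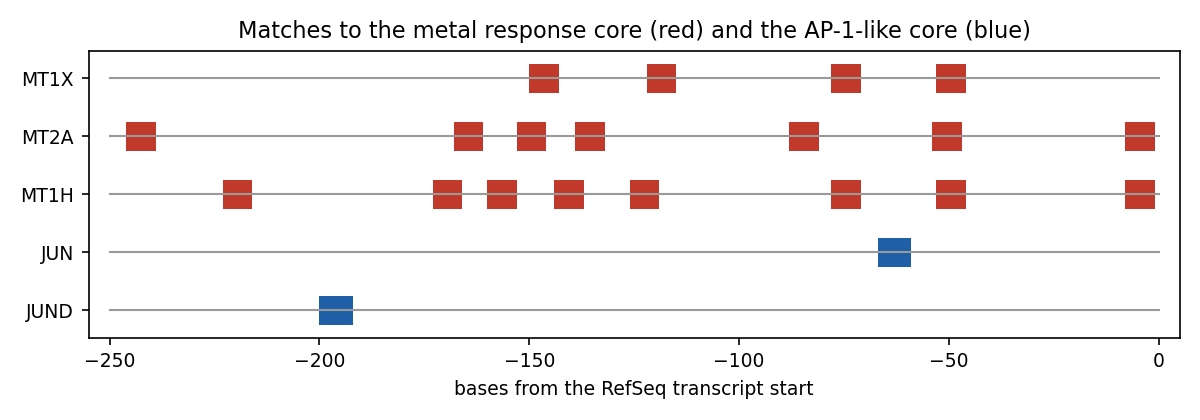
Position of each match to the metal response core (red: MT1X, MT2A, MT1H) and to the AP-1-like core (blue: JUN, JUND) in the 250 bases before the RefSeq transcript start, in bases from the start. MT1X holds 4 red matches, MT2A 7 and MT1H 8, and JUN and JUND hold 1 blue match each.

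MT1X stood at 2377 and 2358 on the NBD arrays, against 693.1 and 567.2 on the control arrays. Its log2 difference was 1.92 (SE 0.14), a 3.78-fold rise, with a limma adjusted p of 7.67e-06. MT1F stood at 899.4 and 929.2 with NBD, against 297.7 and 259.5 with control (log2 difference 1.72, SE 0.10, limma adjusted p = 1.23e-06). The groups lay far apart for both genes, and the arrays of each group close together. MT2A, the most widely used human metallothionein, stood at 4157 and 4034 with NBD, against 1428 and 1321 with control (log2 difference 1.58, SE 0.09, limma adjusted p = 1.33e-06). MT1H stood at 1287 and 1262 with NBD, against 482.4 and 420.8 with control. MT1G rose by 1.44 and MT1HL1, a copy of MT1H on chromosome 1, by 1.40 on the log2 scale. MT1E rose less, to 422.9 and 397.0 with NBD, against 220.2 and 226.1 with control, a log2 difference of 0.88 (SE 0.08, limma adjusted p = 0.000121). All 7 stayed past the threshold without each of the 4 arrays in turn.

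All 7 were measured by probe sets of the kind whose probes match several related genes (suffix _x_at), so the members may share signal, and the 7 values are not 7 independent measurements. A further probe set gave 2.16 for MT1X, 0.58 for MT1F and 0.58 for MT1E, and a dim one gave 0.16 for MT1G. The average over its probe sets was 0.80 for MT1G, which still passed (limma adjusted p = 0.0012). Of the 19 tested genes of the metallothionein and zinc list, those 7 rose and none fell, with a list median of 0.11, while 0.138% of all genes were called higher. The 12 others hold 11 of zinc transport and sensing and MT3, a metallothionein of the brain. SLC30A1, the zinc exporter of the plasma membrane and a known MTF1 target, stood at 2569 and 2532 with NBD, against 2019 and 2073 with control. The difference of 0.32 did not pass (limma adjusted p = 0.139), though its groups did not overlap. MTF1 itself had a difference of -0.03 and overlapping groups. These members outside the rule for named genes were chosen after their values were seen.

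Immediate-early and AP-1 genes rose in part. AP-1 transcription factors are dimers of JUN, FOS and ATF family proteins that act on the genome after mitogens and stress, and JUN also drives its own promoter. JUN stood at 2602 and 2655 with NBD, against 1740 and 1776 with control, a log2 difference of 0.58 (SE 0.09, limma adjusted p = 0.00989). The pairs were narrow and far apart, and 3 further probe sets of JUN gave 0.47 to 0.67. JUND, a JUN protein with steadier expression, stood at 2811 and 2943 with NBD, against 2115 and 2125 with control (log2 difference 0.44, SE 0.08, limma adjusted p = 0.0166). EGR1, a zinc finger factor induced by serum and by MAP kinase signals, had the largest rise outside the metallothioneins, with 487.1 and 473.4 under NBD, against 228.9 and 247.3 under control. That is a 2.02-fold difference of 1.01 on the log2 scale (SE 0.18, limma adjusted p = 0.0181), and its further 2 probe sets gave 0.53 and 0.85. With all probe sets averaged JUND had 0.32 and did not pass (limma adjusted p = 0.182). The calls for JUN, JUND and EGR1 each lost the threshold without any 1 of the 4 arrays, where the highest adjusted p was 0.0935, 0.13 and 0.188.

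The AP-1-like core TGACNTCA is the element through which JUN is known to act on its own gene. It is shown in capitals in the 250 bases before JUN (chr1:58784048-58784297, minus strand, RefSeq GRCh38.p14).
JUN: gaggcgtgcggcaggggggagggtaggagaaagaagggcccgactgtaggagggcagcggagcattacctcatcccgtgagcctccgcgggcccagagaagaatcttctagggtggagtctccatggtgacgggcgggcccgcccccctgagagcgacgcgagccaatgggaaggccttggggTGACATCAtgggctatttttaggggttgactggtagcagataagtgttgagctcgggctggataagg
The core matched 1 time before JUN and 1 time before JUND, and at least 1 time in 6.87% of all 35116 windows. Of the AP-1 list it also matched 1 time each before ATF3 and MAFF, which were not called. Both strands were searched (on the minus strand the core is read as TGANGTCA), and a stretch that matched on both strands was counted 1 time.

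Within the AP-1 list 2 of 13 tested members were called, both higher, with a median of 0.12, against -0.01 over all genes. Of all genes 0.138% were called higher. Of the members not called, ATF3, a stress-induced repressor, had a log2 difference of 0.53, FOSL2, a FOS family member, 0.49 and FOS 0.37. Of 20 tested immediate-early genes, EGR1 alone was called, 16 differences were above 0 and 4 below (45.8% of all genes were above 0), and the median was 0.16. Here 12 genes had NBD above control on all arrays, against 20.7% of all genes. PLK2, a kinase of the stress and synaptic response, came next after EGR1 with 0.56 and did not pass. The MAP kinase phosphatase and Sprouty list, whose members switch such signals off, had no call among 14 and a median of 0.09. At an unadjusted limma p under 0.05, 4 were higher and 0 lower, against 2.62% and 7.82% of all genes. DUSP10 stood at 360.9 and 371.3 with NBD, against 276.9 and 280.1 with control (log2 difference 0.39, limma adjusted p = 0.301), and DUSP7 had 0.34 (limma adjusted p = 0.0732). No overlap was seen between the arrays of either gene. ATF3, FOSL2, FOS and PLK2 were chosen after their values were seen.

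No gene was called in the list of NF-kB feedback inhibitors or in that of NF-kB subunits and the IKK complex. NFKBIA encodes IkBα, a direct target whose product feeds back on NF-kB. It stood at 1460 and 1378 with NBD, against 1209 and 1337 with control, a log2 difference of 0.16 (95% interval -0.01 to 0.33, limma adjusted p = 0.532). TNFAIP3, the feedback inhibitor A20, had 505.4 and 529.1 with NBD, against 458.3 and 461.3 with control (log2 difference 0.17, interval 0.02 to 0.32 before adjustment, limma adjusted p = 0.385). For both genes each NBD array lay above each control array, though by less than the adjusted test resolves. CYLD had 159.7 and 199.4 with NBD, against 178.0 and 200.4 with control, which overlap (log2 difference -0.08, interval -0.30 to 0.14, limma adjusted p = 0.89). The list of 12 feedback inhibitors had no call, a median of 0.05, and 2 higher and 0 lower at an unadjusted limma p under 0.05. At that p, 2.62% of all genes were higher and 7.82% lower.

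The listed subunits and kinases of the pathway had no call among 21 tested genes and a median of 0.00. At an unadjusted limma p under 0.05, 2 were higher and 1 lower, against 2.62% and 7.82% of all genes. NFKB1, the source of the p50 subunit, differed by -0.05 (interval -0.33 to 0.23). RELA, the p65 subunit, differed by -0.04 (interval -0.33 to 0.25). The kinase genes gave -0.12 for CHUK (IKKα), -0.07 for IKBKB (IKKβ) and 0.05 for IKBKG (NEMO), with limma adjusted p of 0.801, 0.929 and 0.91. The arrays of NFKB1, RELA, IKBKB and IKBKG overlapped between the peptides. RELB, a subunit of the non-canonical arm whose gene is also a canonical target, stood at 80.5 and 79.4 with NBD, against 63.3 and 47.8 with control, and its difference of 0.54 (SE 0.17) did not pass (limma adjusted p = 0.193). REL had 0.22 (limma adjusted p = 0.372).

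Of 25 tested NF-kB targets, 1 was called. That gene is MYB, which fell and is described with the T lineage factors, and 15 differences were above 0 and 10 below, with a median of 0.07. Of all genes 0.646% were called lower. The differences ranged from -0.61 to 0.73, and 3 were higher and 4 lower at an unadjusted limma p under 0.05. At that p, 2.62% of all genes were higher and 7.82% lower. BCL2A1, an anti-apoptotic target, was dim at 10.4 and 11.7 with NBD, against 9.7 and 7.2 with control (log2 difference 0.40, limma adjusted p = 0.394). Among 17 genes of the inhibitor of apoptosis and death receptor list none was called and none had an unadjusted limma p under 0.05 in either direction, with a median of -0.01. FAS, a death receptor, differed by -0.25 and CASP8, the initiator caspase, by 0.14. These counts rest on the brightest probe set of each gene. The 4 further probe sets of FAS gave -0.52 to -0.26. In a limma fit over all probe sets with 1 gene symbol, the one at -0.52 had an unadjusted p of 0.000549 and an adjusted p of 0.14. The 17 BCL2 family genes had no call, 1 higher and 1 lower at an unadjusted limma p under 0.05, and a median of 0.03. BCL2L11, which encodes the pro-apoptotic BIM, had dim values of 9.9 and 8.5 with NBD, against 11.3 and 13.1 with control (log2 difference -0.41, limma adjusted p = 0.111). Of its 6 other probe sets, the 3 over the filter in HPB-ALL gave -0.14, -0.02 and 0.36.

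Genes of the Notch list fell in part. Notch receptors are cut on ligand binding, and their freed intracellular part acts with RBPJ on targets such as HES1 and DTX1. Of 26 tested genes 3 were called, all lower (0.646% of all genes were), and 19 differences were below 0, against 54.2% of all genes, with a median of -0.12. LZTFL1, a regulator of protein trafficking, stood at 40.7 and 36.9 with NBD, against 105.7 and 107.2 with control. The difference was -1.46 (SE 0.15, limma adjusted p = 0.000273), a 2.74-fold fall, and a further bright probe set gave -1.36. CR2, the complement receptor CD21, stood at 73.0 and 65.6 with NBD, against 175.1 and 174.9 with control (log2 difference -1.34, SE 0.15, limma adjusted p = 0.000628). Within each pair of these genes the arrays were close, and both calls held without each of the 4 arrays. Averaged over all probe sets, which include dim ones, the differences were -0.78 for LZTFL1 and -0.69 for CR2, and both still passed (limma adjusted p = 0.0306 and 0.00645).

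NOTCH3, a Notch receptor and itself a Notch target, stood at 100.2 and 120.6 with NBD, against 202.2 and 227.3 with control. It fell by 0.96 on the log2 scale (SE 0.15, limma adjusted p = 0.00913), with no overlap. The call was lost without control array 2 or NBD array 1, with an adjusted p of up to 0.135. A second probe set of NOTCH3, which was dimmer, gave -0.10, and their average of -0.53 did not pass (limma adjusted p = 0.11). HES1, the repressor named in the title of the series, stood at 107.8 and 136.0 with NBD, against 207.8 and 193.7 with control. Both NBD arrays were lower, with a difference of -0.73 (SE 0.22, 95% interval -1.21 to -0.25 before adjustment), but it did not pass (limma adjusted p = 0.191). In all, 15 of the 26 genes of this list had NBD below control on all arrays, against 29.1% of all genes.

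Of the ID protein genes, ID1 fell. ID proteins have no DNA-binding part and hold E proteins, among them TCF3 (E2A), away from DNA. ID1 stood at 206.3 and 196.9 with NBD, against 357.9 and 348.7 with control, a fall of 0.81 on the log2 scale (SE 0.15, limma adjusted p = 0.0304). The arrays of each pair were close and the groups far apart, though the call was lost without any 1 of the 4 arrays (highest adjusted p 0.196). ID3 stood at 170.1 and 169.9 with NBD, against 165.7 and 190.6 with control, with overlap and a difference of -0.06 (interval -0.30 to 0.17). TCF3 stood at 987.5 and 979.7 with NBD, against 787.7 and 769.5 with control, a rise of 0.34 (SE 0.06, limma adjusted p = 0.0253). That value comes from its brightest probe set. Of its 13 further probe sets 8 had a difference below 0, and the mean over all of them was -0.02, so the direction for TCF3 turns with the probe set used. Its call was also lost without any 1 of the 4 arrays. The list of 10 tested genes held these 2 calls and a median of -0.04, while 0.138% of all genes were called higher and 0.646% lower.

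Genes of the T cell receptor and of the thymocyte stage fell in part. The T cell receptor chains sit in the membrane with the CD3 chains and CD247 (zeta), which carry the signal inward. TRBC1, the constant part of the beta chain, stood at 4341 and 4286 with NBD, against 6267 and 6053 with control (log2 difference -0.51, SE 0.08, limma adjusted p = 0.00617). CD3D stood at 7556 and 7582 with NBD, against 10249 and 9908 with control (log2 difference -0.41, SE 0.07, limma adjusted p = 0.0145). CD247 stood at 1187 and 1082 with NBD, against 1507 and 1498 with control (log2 difference -0.41, SE 0.07, limma adjusted p = 0.0145). All 3 had both NBD arrays below both control arrays. Each call was lost without some of the 4 arrays: TRBC1 and CD3D without any 1 of them, and CD247 without either control array or NBD array 2. With its dimmer probe set averaged in, CD247 had -0.27 (limma adjusted p = 0.134).

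These 3 were the calls among 20 tested receptor and signalling genes, of which 17 differed below 0, with a median of -0.20, while 0.646% of all genes were called lower and 54.2% lay below 0. On 13 of the 20 NBD lay below control on all arrays, against 29.1% of all genes. The summed intensity of the 11 T cell markers was 14931 and 14825 with NBD, against 18689 and 18613 with control, and CD3D made up the larger part of it. Sums of B cell markers were 370.0 and 387.2 with NBD, against 390.7 and 351.8 with control, and of myeloid markers 158.7 and 157.8, against 154.1 and 151.1. In a culture measured in bulk, fewer cells with a transcript and less transcript per cell cannot be told apart.

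RAG1, the recombinase that cuts receptor genes in developing lymphocytes, stood at 229.8 and 228.4 with NBD, against 450.4 and 430.1 with control. It fell 1.92-fold, by 0.94 on the log2 scale (SE 0.08, limma adjusted p = 6.26e-05), and the call held without each of the 4 arrays. Averaged with its other probe set, which was dim and gave 0.06, RAG1 had -0.44 and did not pass (limma adjusted p = 0.0579). CD38, an enzyme of NAD metabolism on the surface of thymocytes, stood at 186.0 and 197.0 with NBD, against 288.9 and 285.6 with control (log2 difference -0.59, SE 0.06, limma adjusted p = 0.000232), and it also held each time. The arrays of both genes were tight and did not overlap. They were the 2 calls among 19 tested genes of the CD1 family and thymocyte list, of which 15 differed below 0, with a median of -0.23, and 12 had NBD below control on all arrays. Over all genes 0.646% were called lower, 54.2% differed below 0 and 29.1% had NBD below control on all arrays. IL7R, the interleukin receptor of early T cells, had 438.5 and 447.2 with NBD, against 562.1 and 529.8 with control (log2 difference -0.30, limma adjusted p = 0.317).

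Among 20 tested transcription factors of the T lineage and of T-ALL, 3 fell and 17 differed below 0, with a median of -0.12, while 0.646% of all genes were called lower and 54.2% lay below 0. MYB, a factor of blood progenitors and a T-ALL oncogene, stood at 1249 and 1203 with NBD, against 1799 and 1781 with control (log2 difference -0.55, SE 0.07, limma adjusted p = 0.00212). LEF1, which acts with beta-catenin in Wnt signalling, stood at 5253 and 5351 with NBD, against 7680 and 7445 with control (log2 difference -0.51, SE 0.07, limma adjusted p = 0.00223). Neither pair overlapped, and both calls held without each of the 4 arrays. MYB lost its call when all its probe sets were averaged (log2 difference -0.34, limma adjusted p = 0.134), and its other probe set, below the filter, gave -0.14. The 2 further probe sets of LEF1 gave -0.76 and -0.01, and with all averaged LEF1 had -0.43 and passed (limma adjusted p = 0.047). IKZF2, the Ikaros family factor Helios, stood at 520.1 and 560.7 with NBD, against 853.9 and 763.5 with control (log2 difference -0.58, SE 0.11, limma adjusted p = 0.0358). That call was lost without any 1 of the 4 arrays and with all probe sets averaged (log2 difference -0.30, limma adjusted p = 0.327). TLX3, the homeobox oncogene for which HPB-ALL is known, was dim and overlapped, with 46.1 and 62.0 with NBD, against 46.7 and 75.2 with control. TLX3 was chosen as a marker of the line.

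CD300A had the largest fall of all called genes when each was read from its brightest probe set. It is an inhibitory receptor of leukocytes, and it stood at 97.0 and 121.8 with NBD, against 310.2 and 324.2 with control. The difference was -1.54 (SE 0.12), a 2.92-fold fall, with a limma adjusted p of 1.94e-05, and it held without each of the 4 arrays. Its other 2 probe sets, both below the filter, gave -0.96 and -0.14, and the average of all was -0.88 (limma adjusted p = 0.0149), a smaller fall than the -1.14 of TMEM158 and the -1.04 of MYMX, which have 1 probe set each. SLA, an adaptor that dampens T cell receptor signals, stood at 251.6 and 259.7 with NBD, against 344.0 and 377.8 with control (log2 difference -0.50, SE 0.09, limma adjusted p = 0.0181), and its second probe set gave -0.33. The SLA call was lost without any 1 of the 4 arrays. Of 19 tested inhibitory receptors and lymphocyte adaptors these 2 were called, 13 differed below 0, 11 had NBD below control on all arrays, and the median was -0.14. The shares over all genes were 0.646%, 54.2% and 29.1% in that order.

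**Figure D3:**
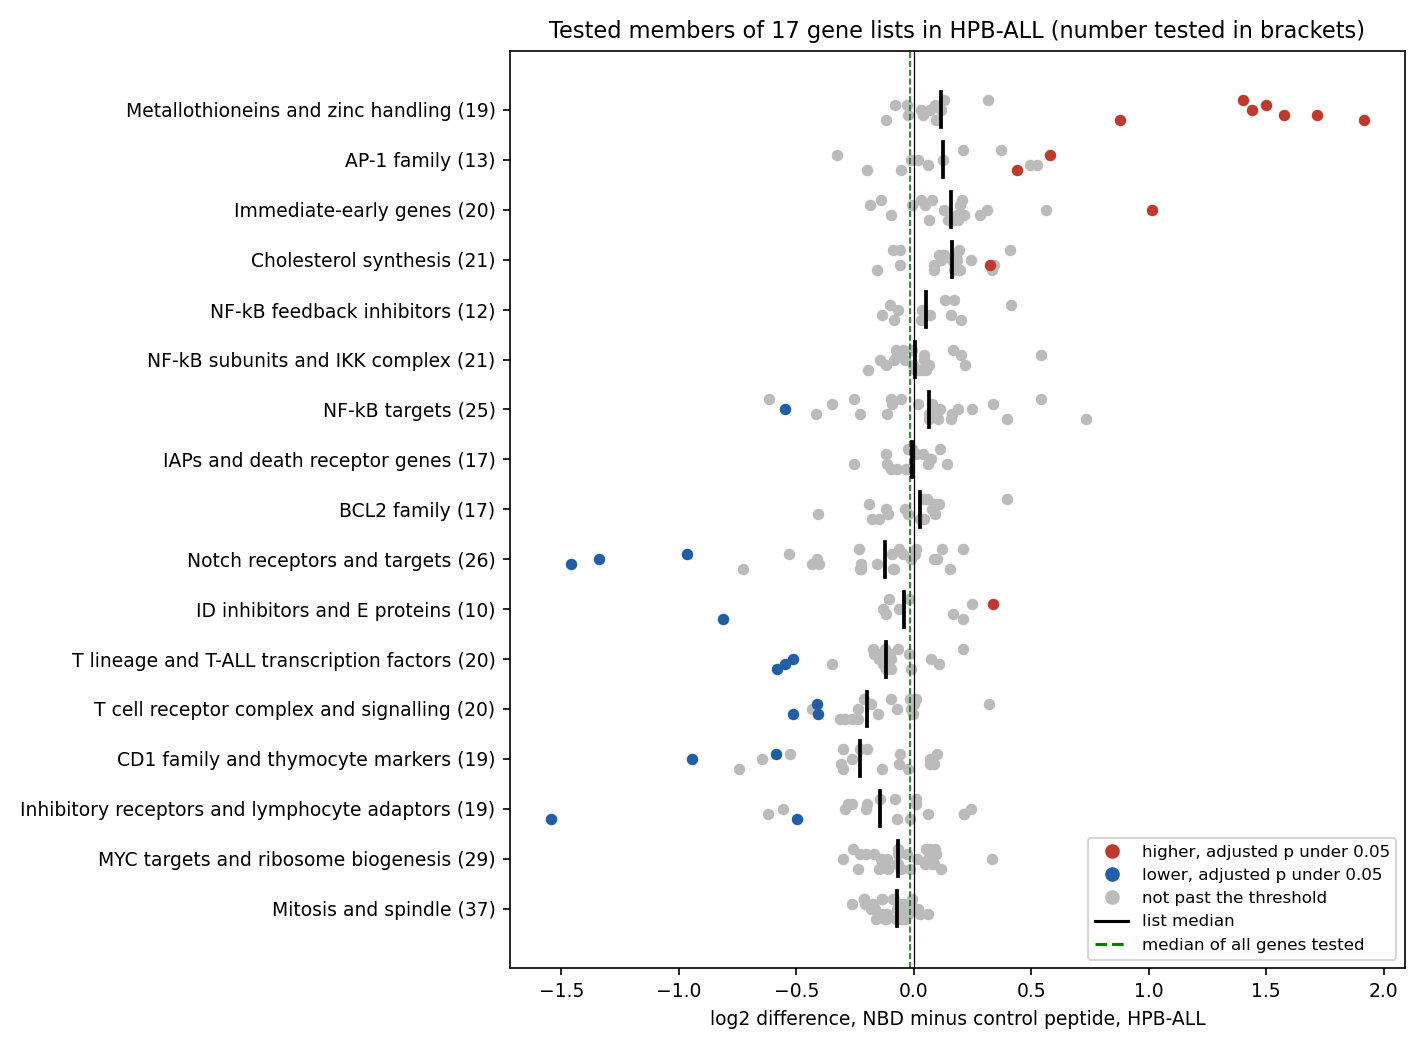
Log2 difference (x axis, NBD minus control, HPB-ALL) of each tested member of 17 gene lists (points; red higher and blue lower at a limma adjusted p under 0.05, grey not past it), with the list median (black) and the median of all genes (green dashes, -0.01). The 7 red metallothioneins lie between 0.88 and 1.92, and the blue points of the Notch list between -1.46 and -0.96.

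Outside these lists, the named genes that fell most were of mixed function. DOCK1, an exchange factor that activates the GTPase Rac, stood at 208.0 and 257.2 with NBD, against 578.6 and 649.9 with control (log2 difference -1.41, SE 0.18, limma adjusted p = 0.00212), and it held without each of the 4 arrays. MYMX, a micropeptide known from the fusion of muscle cells, stood at 89.3 and 70.9 with NBD, against 155.3 and 173.4 with control (log2 difference -1.04, limma adjusted p = 0.00148), and held likewise. The groups of these 2 genes were set well apart. The 4 other probe sets of DOCK1 gave -0.35 to 0.12, with -0.12 from the 1 over the filter in HPB-ALL. With its probe sets averaged, DOCK1 could not be tested. TMEM158, a membrane protein known for its induction by RAS, fell by 1.14, ADAMTS17, a secreted metalloprotease, by 1.10, and SHROOM2, an actin-binding protein, by 1.04 on the log2 scale. MOSMO, an attenuator of Hedgehog signalling, fell by 0.92, ABCC10, a drug efflux pump, by 0.86, and the non-coding LCT-AS1 and LINC00664 by 0.83 and 0.81. GADD45G, a stress sensor of the growth arrest family, fell by 0.99 with a wide control pair, 71.5 and 82.2 with NBD against 118.9 and 194.4 with control. It was the 1 call among 22 tested p53 targets (median 0.05), while 0.646% of all genes were called lower. Its difference ranged from -1.34 to -0.63 as each array was left out. The calls for ADAMTS17, MOSMO and LCT-AS1 were lost without any 1 of the 4 arrays, those for TMEM158 and GADD45G without any but control array 1, and that for SHROOM2 without control array 2 or NBD array 1. ABCC10 lost its call without control array 2, and LINC00664 without control array 1 or NBD array 1. The other probe set of ABCC10, which was the brighter one on the HPB-ALL arrays, gave -0.06, and the average of both, -0.46, did not pass (limma adjusted p = 0.0792).

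A few genes with smaller falls were chosen here after their values were seen, and stand for no group. ADA, the adenosine deaminase that T-ALL blasts carry in abundance, stood at 3670 and 3635 with NBD, against 4882 and 5102 with control (log2 difference -0.45, SE 0.06, limma adjusted p = 0.00362). The groups did not overlap, and the call was lost without control array 2. UCP2, a carrier of the inner mitochondrial membrane, stood at 553.8 and 596.5 with NBD, against 1005.6 and 929.8 with control, a fall of 0.75 on the log2 scale. Its call was lost without control array 1 or NBD array 1. GFI1, a transcriptional repressor of lymphoid and myeloid progenitors, stood at 234.1 and 224.1 with NBD, against 308.3 and 311.8 with control (log2 difference -0.44, limma adjusted p = 0.0483), and its call was lost without any 1 of the 4 arrays. The antisense RNA LEF1-AS1 fell by 0.66 beside LEF1, with a call that was also lost without any 1 array, and the arrays do not say whether the probes of the 2 overlapping genes read each other's transcripts.

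The named genes that rose outside the lists were dimmer or changed less. CABLES1, which links cyclin-dependent kinases to ABL, stood at 42.1 and 40.2 with NBD, against 27.5 and 22.4 with control (log2 difference 0.73, SE 0.15, limma adjusted p = 0.042). GJC1, the connexin 45 gap junction protein, rose by 0.60 at intensities of 26.5 and 21.4 with NBD, against 18.1 and 13.7 with control, all below the median of the deposited values. MAP3K13, a kinase upstream of JNK, stood at 32.7 and 36.1 with NBD, against 23.0 and 24.8 with control (log2 difference 0.52, SE 0.08, limma adjusted p = 0.00989). None of these pairs overlapped, though all 3 lie near or below the level at which genes were kept. TENT5C, a poly(A) polymerase, rose by 0.56, CC2D1A, a regulator of transcription and of endosomal sorting, by 0.51 and ZNF451, a SUMO ligase, by 0.45. CABLES1, TENT5C, CC2D1A and ZNF451 lost the call without any 1 of the 4 arrays, GJC1 without control array 2 or NBD array 1, and MAP3K13 without control array 1 or NBD array 2. With all probe sets of a gene averaged, the difference was 0.16 for CABLES1, 0.13 for GJC1, 0.11 for ZNF451 and 0.03 for CC2D1A, and none of these passed. MAP3K13 could not be tested in this way, and its 6 other probe sets, all below the filter, gave -0.06 to 0.13.

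Lipid synthesis genes had small differences. The mevalonate pathway makes cholesterol and isoprenoids under the SREBP factors. IDI1, an isomerase of that pathway, stood at 3643 and 3387 with NBD, against 2694 and 2912 with control (log2 difference 0.33, SE 0.07, limma adjusted p = 0.042). It was the 1 call among 21 tested genes of cholesterol synthesis, 17 differed above 0, 16 had NBD above control on all arrays, and the median was 0.16. Of all genes 0.138% were called higher, 45.8% differed above 0 and 20.7% had NBD above control on all arrays. Of the further probe sets of IDI1, the brightest gave 0.29 and 2 dimmer ones gave 0.03 each. With all averaged IDI1 had 0.17 and did not pass (limma adjusted p = 0.479). SCD, the desaturase that makes monounsaturated fatty acids, stood at 1840 and 1947 with NBD, against 1500 and 1403 with control (log2 difference 0.38, SE 0.07, limma adjusted p = 0.0316). It was the 1 call among 13 genes of fatty acid synthesis and LXR targets (median 0.01), and 3 further probe sets of SCD gave 0.08 to 0.09, with an average over all of 0.16 that did not pass (limma adjusted p = 0.891). Both calls were lost without any 1 of the 4 arrays.

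No gene was called in the other growth and stress lists. Over all genes 2.62% were higher and 7.82% lower at an unadjusted limma p under 0.05, and the counts below are to be read against these shares. At an unadjusted limma p under 0.05 the 37 mitosis genes gave 0 higher and 8 lower, the 38 DNA replication genes 1 and 3, the 20 G1 cyclins, CDKs and inhibitors 1 and 0, the 11 MYC network genes 1 and 1, and the 29 MYC targets and ribosome biogenesis genes 0 and 4. The mitosis list had 34 of 37 differences below 0, against 54.2% of all genes, and its median was -0.07. CENPA, the centromeric histone, had -0.26 and TPX2, a spindle assembly factor, -0.21 there. The 39 respiratory chain subunits had 33 differences below 0 (median -0.04) and the 32 proteasome subunits 29 (median -0.05), with 0 higher and 2 lower at an unadjusted limma p under 0.05 in each. The 34 cytosolic ribosomal proteins had 26 above 0 (median 0.01) and 0 at that p in either direction.

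The stress and signalling lists had medians between -0.08 and 0.08, where the middle 50% of all genes lay between -0.11 and 0.07. Among 36 genes of the integrated stress response and amino acid supply, 6 were higher and 1 lower at an unadjusted limma p under 0.05 (median 0.08). In that list 29 differences were above 0, against 45.8% of all genes, and 16 genes had NBD above control on all arrays, against 20.7%. The 20 endoplasmic reticulum chaperones had 1 and 1 (0.05), the 15 heat shock chaperones 0 and 0 (0.03), the 18 NRF2 targets 3 and 1 (0.07) and the 16 iron and selenium genes 1 and 1 (-0.01). The 38 interferon-stimulated and MHC class I genes had 0 and 5 (-0.08), the 19 cytokine response genes 0 and 2 (0.00) and the 17 TGF-beta and SMAD genes 1 and 2 (0.08). The 32 hypoxia and glycolysis genes had 2 and 1 (0.01), and the 14 FOXO and quiescence genes 0 and 1 (-0.03). SRXN1, an antioxidant NRF2 target, differed by 0.40 with 240.4 and 251.1 with NBD, against 160.0 and 215.7 with control (limma adjusted p = 0.3). PFKFB3, an activator of glycolysis, differed by 0.35 and came close to the threshold (limma adjusted p = 0.0548).

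Most genes called in HPB-ALL cells had the same sign in the other lines. Of the 89 lower genes, 79 were below 0 in CEM, 73 in DND41, 75 in KOPT-K and 77 in T-ALL1, where between 52.7% and 54.5% of all genes were. Of the 19 higher genes, 15, 16, 15 and 16 were above 0 in these lines in that order, where between 45.5% and 47.3% of all genes were. Called in the same direction were 11, 12, 11 and 21 of the lower genes and 12, 5, 11 and 1 of the higher genes. Among all 13787 genes, 102, 240, 53 and 317 were called lower in these lines, and 54, 101, 123 and 158 higher. In T-ALL1 the actin signal, given below, showed RNA integrity to differ between the peptides. All 4 other lines shared the sign for 56 lower genes and 12 higher genes, against 1515 genes below 0 and 822 above 0 in all of them among the 13787 tested. The median difference of the lower genes was -0.52 in HPB-ALL, against -0.18 for the mean of the other 4 lines, and that of the higher genes 0.60, against 0.33. These medians are taken over genes that were chosen for their value in HPB-ALL, which makes the HPB-ALL median the larger by construction.

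**Figure D4:**
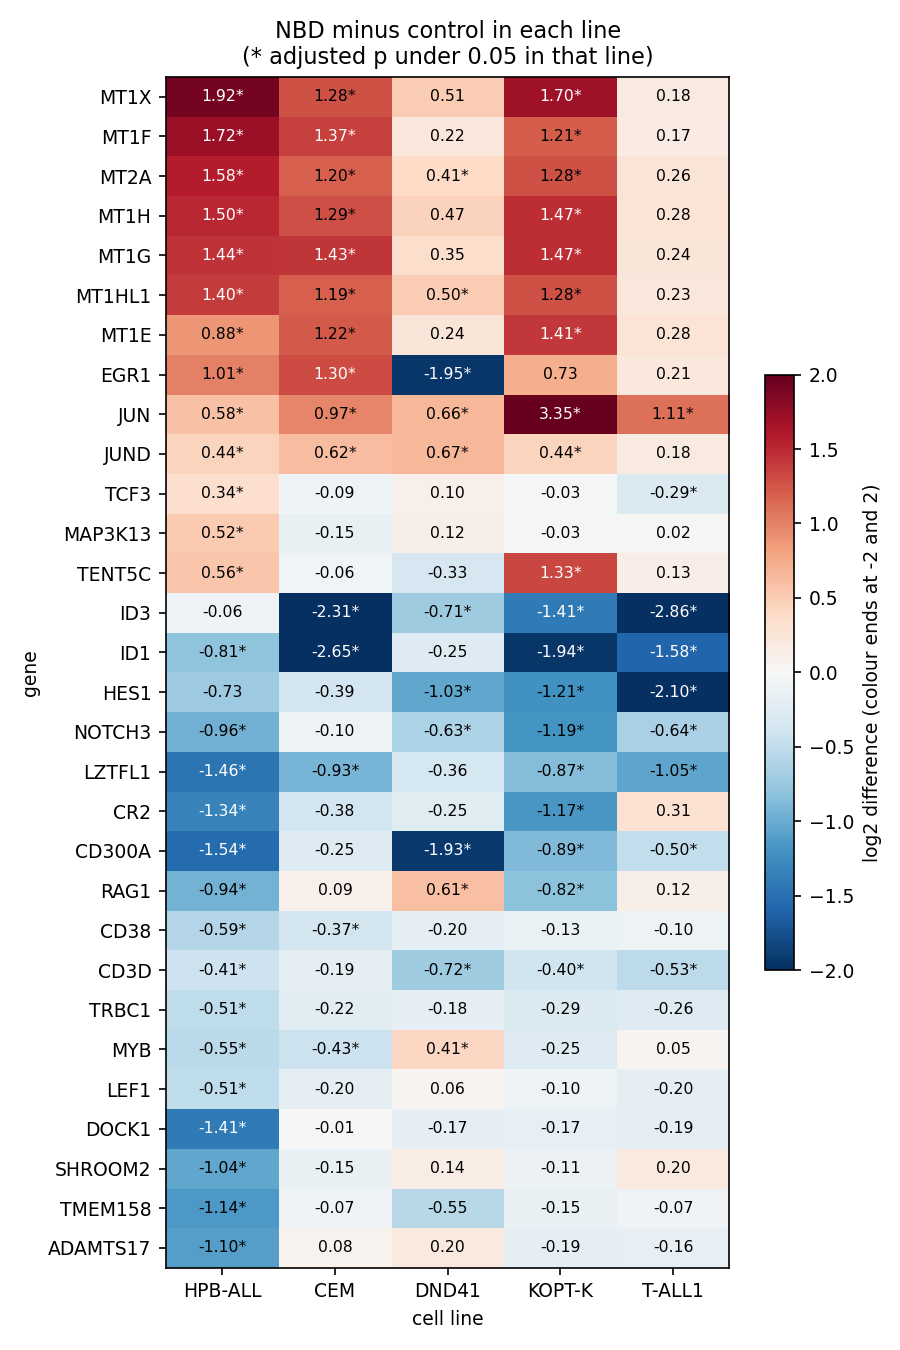
Log2 difference, NBD minus control, of 30 genes (rows) in HPB-ALL and in the other 4 lines (columns), with an asterisk at a limma adjusted p under 0.05 in that line. MT1X was 1.92 in HPB-ALL, against 0.18 to 1.70 elsewhere, and ID3 was -0.06, against -2.86 to -0.71 elsewhere.

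The difference between the HPB-ALL effect and the mean effect of the other 4 lines was tested itself, and 18 genes passed (0.131%), 7 with the more positive effect in HPB-ALL and 11 with the more negative one. ID3 differed most. Its log2 difference was -0.06 in HPB-ALL, against -2.31 in CEM, -0.71 in DND41, -1.41 in KOPT-K and -2.86 in T-ALL1, and the difference of 1.76 had a limma adjusted p of 2.46e-05. MT1X (difference 1.00, limma adjusted p = 0.032), MT1F (0.98, 0.00136) and MT2A (0.79, 0.00908) rose further in HPB-ALL than in the mean of the others. For MT1X the other lines had 1.28 in CEM, 0.51 in DND41, 1.70 in KOPT-K and 0.18 in T-ALL1, so KOPT-K was near HPB-ALL and T-ALL1 far from it. The control arrays of T-ALL1 stood furthest apart of all groups (SD 0.225 on the log2 scale, against 0.109 to 0.148 in the others). Their actin 3′ signal exceeded the 5′ signal on the log2 scale by 3.16 and 2.05, against 1.07 and 0.99 on the NBD arrays of T-ALL1. In that line, RNA integrity and the peptide therefore cannot be told apart. Without that line the differences were 0.75 for MT1X, 0.79 for MT1F and 0.61 for MT2A, and of the 3 MT1F alone passed (limma adjusted p = 0.028, against 0.0846 for MT1X and 0.0636 for MT2A). With all lines kept and all probe sets averaged, MT1F had 0.50 and did not pass (limma adjusted p = 0.206). In that fit MT1X (1.10, limma adjusted p = 0.00431) and MT2A (0.79, limma adjusted p = 0.00475) passed. Without 1 HPB-ALL array, ID3 and MT1F passed each time, and MT1X and MT2A without control array 1 only.

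JUN rose less in HPB-ALL (0.58) than in the mean of the others, with 0.97 in CEM, 0.66 in DND41, 3.35 in KOPT-K and 1.11 in T-ALL1 (difference -0.94, limma adjusted p = 0.00136). Against CEM and DND41 alone the difference was -0.24 and did not pass (limma adjusted p = 0.278). RAG1 had a log2 difference of -0.94 in HPB-ALL, against 0.09 in CEM, 0.61 in DND41, -0.82 in KOPT-K and 0.12 in T-ALL1. The HPB-ALL effect minus the mean of the others was -0.94 (limma adjusted p = 0.000948). RAG1 thus fell in KOPT-K nearly as far as in HPB-ALL, and it rose in DND41. It reached the filter on 12 of the 16 arrays of the other lines. DOCK1 (difference -1.27, limma adjusted p = 0.032) and SHROOM2 (-1.06, 0.032) fell in HPB-ALL and were listed with -0.19 to -0.01 and -0.15 to 0.20 in the other lines. On the 16 arrays of the other lines neither gene reached the filter of 31.96, with 11.5 to 20.8 for DOCK1 and 10.1 to 16.6 for SHROOM2, against 208.0 to 649.9 and 208.0 to 466.7 on the HPB-ALL arrays. A fall could not be measured at those levels, and the test of the difference between lines says nothing about these 2 genes. MYB fell in HPB-ALL and CEM and rose by 0.41 in DND41 (difference -0.49, limma adjusted p = 0.032). With all probe sets averaged, the difference between lines was -0.44 for RAG1 (limma adjusted p = 0.211) and -0.12 for MYB (0.995), and neither passed. JUN and RAG1 passed without each HPB-ALL array in turn, whereas DOCK1, SHROOM2 and MYB lost the call without any 1 of them.

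**Figure D5:**
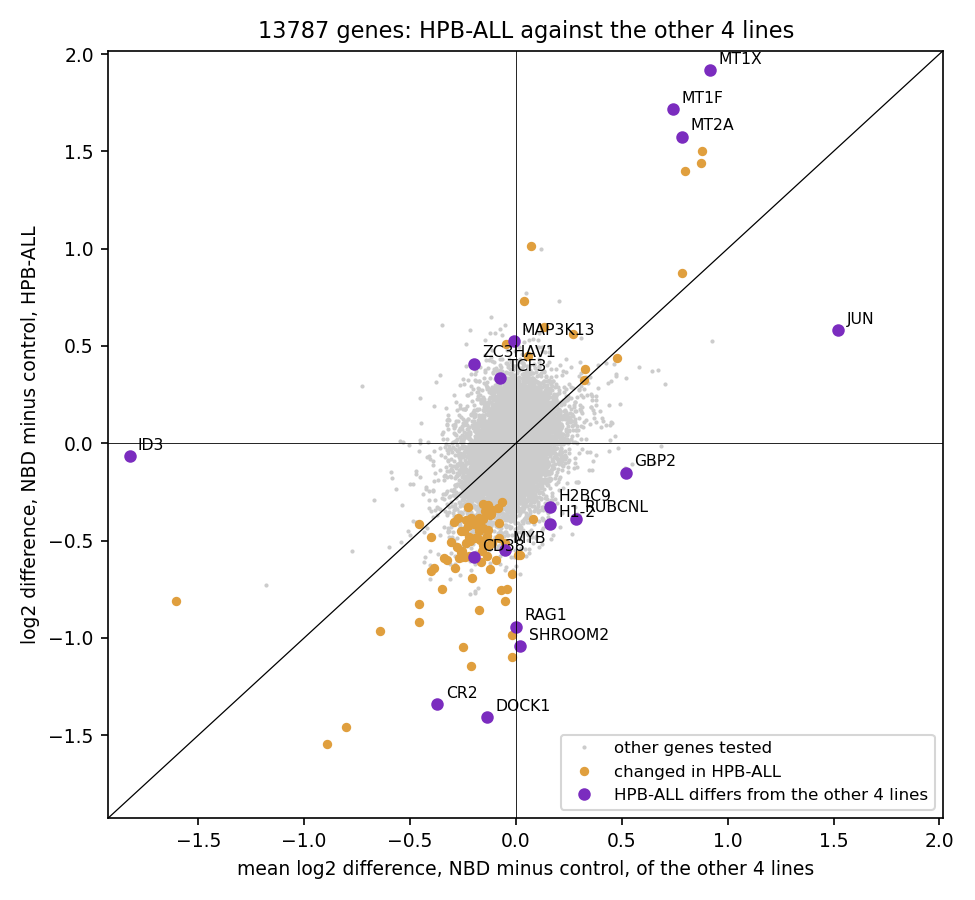
Log2 difference, NBD minus control, in HPB-ALL (y axis) against the mean of the other 4 lines (x axis) for 13787 genes; purple points passed the test of the difference between them, orange points were changed in HPB-ALL without passing it, and the line marks equal effects. ID3 lies far to the left at -0.06 on the y axis, JUN far to the right, and MT1X at the top.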

How the data were processed

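Total RNA of 20 samples was hybridised to Affymetrix arrays after 2-cycle amplification and biotin labelling, per the labels' protocols. The deposited table gives linear intensities of 54675 probe sets, 1 column an array. The submitters' processing notes name RMA, without a version, as what the authors used. HPB-ALL, CEM and DND41 values have 2 decimals and those of T-ALL1 and KOPT-K more, so they may come from separate runs, which the sources used here do not state. Each difference compares arrays within 1 line.

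Intensities were taken to log2 with no pseudocount. Of the probe sets, 41097 had 1 gene symbol in the platform annotation, which can be old, and 41043 of these were found in the RefSeq table of GRCh38.p14, used for names. The 1801 with several symbols and the 11777 without any were not tested as genes. For each of 19775 genes the probe set brightest on average over 20 arrays was used, and 13787 genes whose value was at or over 31.96, the median of the table, on at least 2 arrays were tested. limma 3.58.1 in R 4.3.3 (lmFit, eBayes) fitted 10 group means with 10 residual and 3.42 prior degrees of freedom, and tested NBD minus control in HPB-ALL and that effect minus the mean of the other 4, at a Benjamini-Hochberg adjusted p of 0.05. An array has no read depth, and the number of arrays limits the precision. The fits were tested on simulated data. Promoter windows were searched in Python 3.11.15.

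Genes were named by rule: the 15 largest called differences in each direction, up to 4 called members of each of 36 lists or its 2 largest where none was called, the 5 lowest p in each direction for the difference between lines, and NFKBIA, TNFAIP3, CYLD, HES1, NFKB1, RELA, IKBKB, CHUK and IKBKG. The members and lists were chosen with earlier results of these data known. Of 870 listed genes 758 were tested. The arrays' replicate numbers were not used as pairs in the fit. The alternatives changed the arrays, normalization, filter, probe set, prior, pseudocount and replicate block, and left out each array.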

Additional observations from a re-analysis of the deposited data

Results flagged for a closer look

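The difference between the NBD effect in HPB-ALL and the mean effect of the other 4 lines passed the limma test for 18 genes, and each is given here as the HPB-ALL effect minus that mean on the log2 scale. A more positive effect was found for ID3 (1.76), MT1X (1.00), MT1F (0.98), MT2A (0.79), ZC3HAV1 (0.61), MAP3K13 (0.53) and TCF3 (0.41). A more negative effect was found for DOCK1 (-1.27), SHROOM2 (-1.06), CR2 (-0.97), RAG1 (-0.94), JUN (-0.94), RUBCNL (-0.67), GBP2 (-0.67), H1-2 (-0.57), MYB (-0.49), H2BC9 (-0.49) and CD38 (-0.39). CR2 had -1.34 in HPB-ALL and -1.17 in KOPT-K, against -0.38 in CEM, -0.25 in DND41 and 0.31 in T-ALL1. Without the T-ALL1 line its difference was -0.74 and did not pass (limma adjusted p = 0.16). CD38 had -0.59 in HPB-ALL and was also called lower in CEM (-0.37), with -0.20 in DND41, -0.13 in KOPT-K and -0.10 in T-ALL1.

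Not all 18 were themselves called in HPB-ALL. ID3, ZC3HAV1, an antiviral RNA-binding protein, GBP2, an interferon-induced GTPase, RUBCNL, a regulator of autophagy, and the histone gene H2BC9 were not. GBP2 stood at 26.5 and 28.3 with NBD, against 29.7 and 31.2 with control in HPB-ALL (log2 difference -0.15), and had 0.49 in CEM, 0.23 in DND41, 1.05 in KOPT-K and 0.31 in T-ALL1. RUBCNL had -0.39 in HPB-ALL, against -0.24, 0.45, 0.04 and 0.88 in those lines in that order. The histone genes H1-2 and H2BC9 had -0.41 and -0.33 in HPB-ALL, against a mean of 0.16 over the other lines for each. GBP2 reached the filter on 0 of the 4 HPB-ALL arrays and RUBCNL on 1, so both were kept through the other lines. In HPB-ALL the values of GBP2 lay below the filter, and those of RUBCNL, 25.6 to 36.8, lay around it. DOCK1, SHROOM2 and MAP3K13 reached it on 0 of the 16 arrays of the other lines, so their effects there could not be measured. Under the alternatives in which it could be computed, the test was passed by ID3 in 15 of 15, by JUN and MT1F in 14 of 15, by RAG1 in 13 of 15, by MT1X and MT2A in 10 of 15, by SHROOM2 in 9 of 15, by H1-2, H2BC9 and MYB in 8 of 15, by DOCK1 in 8 of 14, by CR2 in 6 of 15, by CD38, TCF3 and ZC3HAV1 in 5 of 15, by GBP2 and RUBCNL in 5 of 14 and by MAP3K13 in 3 of 14. TCF3 had 0.04 with all probe sets averaged (limma adjusted p = 0.997).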

How the results depend on the processing

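Against 19 higher and 89 lower genes in HPB-ALL, the counts were 6 and 3 with the 4 HPB-ALL arrays alone (780 and 1468 at an unadjusted p under 0.05), 12 and 56 with no filter, 12 and 48 when probe sets of a gene were averaged, and 8 and 14 with the replicate number as a replicate block. Leaving out 1 HPB-ALL array gave 8 to 11 higher and 19 to 42 lower genes. Without the T-ALL1 line, an alternative added after the data were seen, they were 26 and 138. For the difference between HPB-ALL and the other lines, with 7 and 11 genes, the counts were 17 and 13 with CEM, DND41 and HPB-ALL only, 4 and 9 with median centring, 4 and 6 with no filter, 8 and 17 with the probe set highest on the HPB-ALL arrays, 14 and 14 with the trended and robust prior, 7 and 19 with 16 added to each intensity, and 2 and 1 with the replicate block. Leaving out 1 array gave 2 to 5 and 2 to 4. The other alternatives stayed within 1.5 times. Of 700 values of the 44 named and called genes under these alternatives, 497 kept direction and threshold, 202 kept the direction without passing, and TCF3 alone turned its sign, to -0.0231 when its probe sets were averaged. Of 1152 list counts 102 moved. The cause of these changes was not tested. Same-numbered arrays of HPB-ALL deviated from their group means with a correlation of -0.0957, and those of the other lines with -0.281 (T-ALL1) to 0.143 (DND41). Such a correlation cannot show whether same-numbered arrays were handled together. Normalization moved the median of all genes to between -0.03 and -0.01. Genes near the filter, such as GJC1 and MAP3K13, are limited by signal over background.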
